A study of Mus musculus with 4 samples.

Results

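The genes described here are the axon guidance ligands and receptors of the mouse: the semaphorins with their plexin and neuropilin receptors, the ephrins with the Eph receptors, the netrins with Dcc and the Unc5 receptors, and the Slits with the Robo receptors. They were taken by gene name from the array's own annotation, which gave 71 genes, all of them tested, of 27687 array genes tested in all. On the array they had 104 probes, of which 100 could be tested, and 27 of the genes had several probes.

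Guidance ligands are secreted or stand on the cell surface, and they steer growing axons by attracting or repelling the growth cone. In the adult cortex and hippocampus many of the same ligands and receptors act at synapses and dendritic spines. Semaphorins signal through plexins, the secreted ones with neuropilins as co-receptors, and ephrins activate Eph receptor tyrosine kinases and can also signal back into the cell that carries them, while netrins act through Dcc and Unc5 receptors and Slits through Robo receptors.

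The study asked which mRNAs come down with CPEB3, a member of the cytoplasmic polyadenylation element binding family that binds RNA and controls translation in neurons. Lysate of cortex and hippocampus from C57BL/6 mice (a common inbred strain), all male and 8 weeks old, was incubated for 3 h with CPEB3 IgG or control IgG on beads, and as far as the labels say the groups differ in that antibody alone. From each sample 0.2 ug of the RNA that came down was amplified and Cy3-labelled for a 1-colour Agilent array, with 2 arrays for each antibody. Nothing in the labels ties replicates to separate mice or lysates, so the p-values reflect the spread of these arrays alone, which may be technical.

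A level is the log2 signal of a probe relative to the 75th percentile of its array, and a difference is CPEB3 IgG minus control IgG on that log2 scale. A difference thus compares the make-up of both precipitates, and no input array was analysed here. Between 68.0% and 73.4% of probes were well above background on an array, and the number of arrays limits the precision. Over all tested probes r was 0.988 between the CPEB3 arrays, 0.979 between the control arrays and 0.925 to 0.938 across antibodies. Neuronal markers were present, with 9 of 9 well above background on all 4 arrays. A gene is called higher or lower where limma's adjusted p, over all array genes, was under 0.05.

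Of the 71 guidance genes, 33 (46.5%) were called higher with CPEB3 IgG, 1 was called lower (Dcc, at a probe described further on that is mostly a simple repeat) and 37 were not called. At an unadjusted p under 0.05 the counts by limma were 40 higher and 3 lower (Dcc, Epha10 and Ntn5). Over all array genes 19.2% were called higher and 20.2% lower. Among array genes matched to a RefSeq transcript, which is the nearer comparison for named genes, 25.6% were called higher and 19.9% lower. The median difference of the guidance genes was 0.62, that of all array genes was −0.14 and that of the RefSeq-matched genes was −0.0089. Both CPEB3 arrays lay above both control arrays in 48 of the 71 genes (67.6%), while the same held for 31.6% of array genes. The opposite order was found in 5 guidance genes (7.04%) and in 41.3% of array genes. These orders were not counted for RefSeq-matched genes alone.

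Receptors were called higher in 19 of 34 genes and ligands in 14 of 37, with median differences of 0.70 and 0.57. That difference between the 2 kinds was not tested. Leaving out 1 array and choosing each gene's brightest probe anew left 23 to 29 guidance genes called higher, and keeping the probe left 20 to 28. Over the whole array, leaving out CPEB3 IgG replicate 1 reduced the calls to 2651 higher and 2292 lower, and leaving out CPEB3 IgG replicate 2 to 3007 and 2551, from 5309 and 5599. With 1 array left in a group, the fit assumes that this array varies like those of the other group. The scaling sets the balance of directions over the array. Of all calls, 48.7% were higher with the 75th percentile, 68.4% with the median and 88.0% with the spike-in probes, as the median of all genes moved from −0.14 to 0.15 and 0.58. The calls among guidance genes were 43 higher and 1 lower under the median and 31 and 0 under the spike-ins, beside 24.5% and 18.3% of array genes called higher. Since such a scaling shifts all genes by the same amount, the distance of 0.76 between the guidance and array medians cannot change with it.

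**Figure D1:**
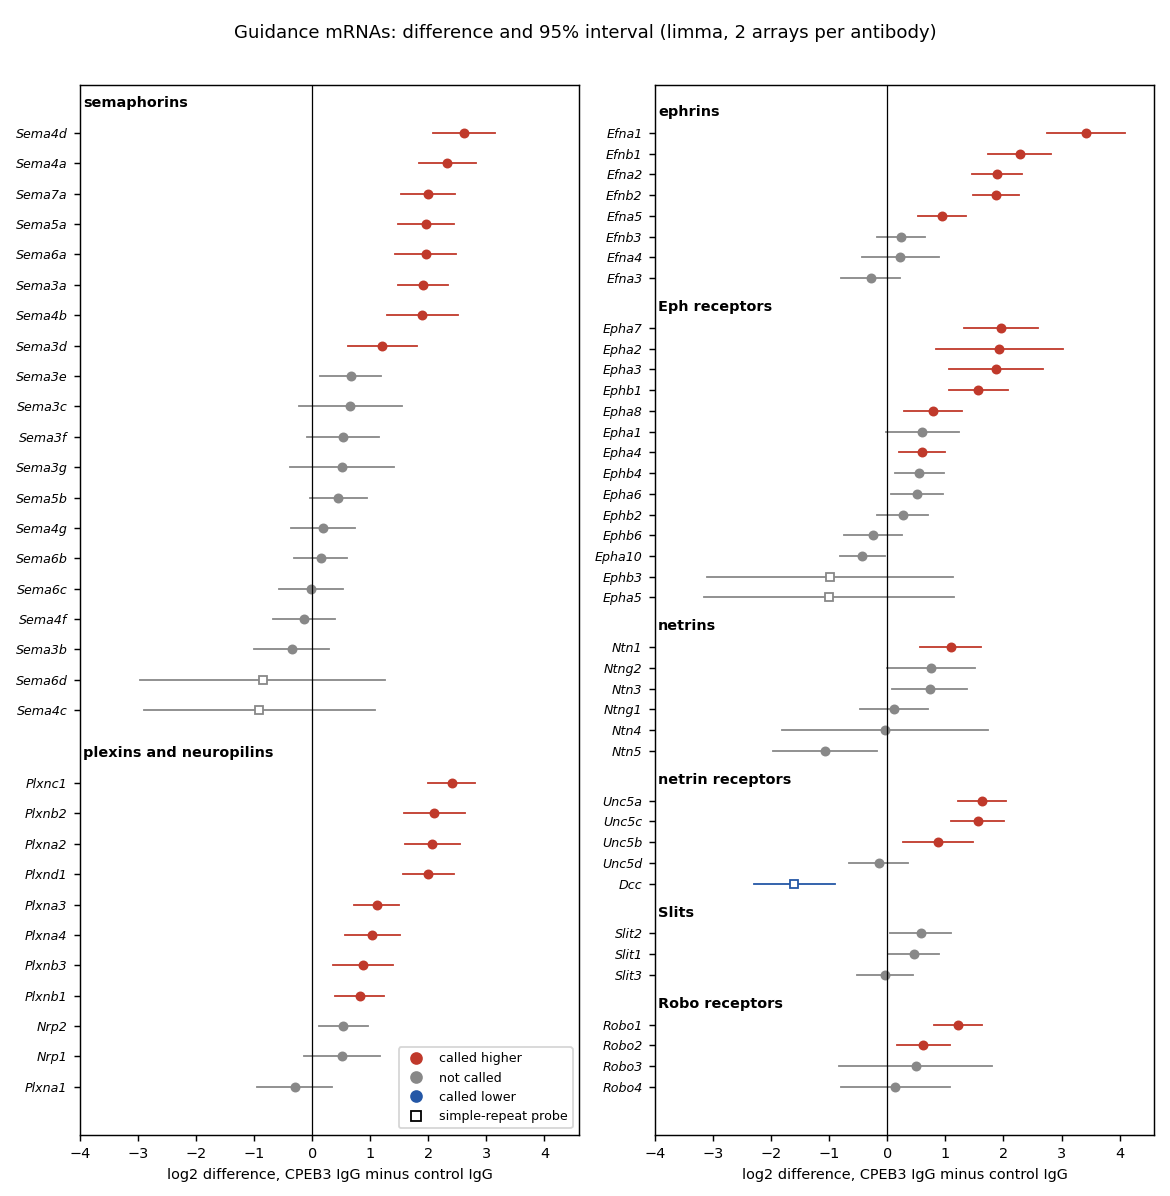
Log2 difference (CPEB3 IgG minus control IgG, x axis) of each of the 71 guidance genes with its 95% interval, grouped by role, for 2 arrays per antibody; red marks genes called higher, blue lower, grey not called, and open squares genes represented by a simple-repeat probe. The 33 called genes on the right run from 0.60 to 3.42, Dcc is the single gene called lower, and the 5 squares all lie left of 0.

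Semaphorins are the largest group of ligands. Of 20, 8 were called higher and none lower, with a median difference of 0.59. The 8 were spread over all classes, with Sema4d, Sema4a, Sema7a, Sema5a, Sema6a, Sema3a and Sema4b between 1.895 and 2.62 and Sema3d at 1.21. Class 4, whose members are transmembrane proteins, had 3 of 6 higher, and class 3, the secreted semaphorins, had 2 of 7.

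Sema4d, a transmembrane ligand of B-type plexins, had log2 levels of 1.699 and 1.37 on the CPEB3 arrays and −0.97 and −1.201 on the control arrays. It was 6.15-fold higher (log2 difference 2.62 ± 0.20 SE, limma adjusted p = 0.00386), and the groups did not overlap. Sema4a, which is known for roles in the immune system as well as in neurons, stood at 3.59 and 3.42 on the CPEB3 arrays and 1.04 and 1.31 on the control arrays. That is a 5.03-fold difference (2.33 ± 0.18, limma adjusted p = 0.00391). For Sema7a, the semaphorin anchored in the membrane by a lipid, the levels were 6.34 and 6.06 on the CPEB3 arrays and 4.24 and 4.17 on the control arrays. Sema7a was thus 3.99-fold higher (1.995 ± 0.17, limma adjusted p = 0.00411), and each replicate pair lay closer together than the antibodies did. The probes of Sema4d and Sema7a both hold AATAAA, the common signal for cleavage and polyadenylation near the end of an mRNA, and the probe of Sema4a holds TTTTAT, the classic cytoplasmic polyadenylation element. Here 30 bases of each 60-base probe are shown on the deposited strand, with mm9 coordinates of the whole probe and these motifs in capitals.
Sema4d (chr13:51796617-51796676, minus strand): gaaaagtacccaAATAAAccagaagcttta
Sema4a (chr3:88239906-88239965, minus strand): ctgcttgtcacagacaatttattTTTTATt
Sema7a (chr9:57810607-57810666, plus strand): atgtaacatattactAATAAAcaagctatt

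Sema5a differed by 1.96 ± 0.18 and Sema6a by 1.95 ± 0.20 at its brighter probe. The second Sema6a probe, on another transcript entry and well above background on 3 of 4 arrays, did not pass, with a difference of −0.71, and with the mean of both probes the call of Sema6a was lost (0.62). Sema4b was higher by 1.895 ± 0.23 and Sema3d by 1.21 ± 0.22. The call of Sema3d was lost without CPEB3 IgG replicate 1 (1.01).

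The other 12 semaphorins were not called. Among them, the secreted Sema3e (0.66), Sema3c (0.65), Sema3f (0.52) and Sema3g (0.51) had positive differences that did not pass, as did Sema5b (0.45). Values nearer 0 were measured for Sema4g (0.18), Sema6b (0.15), Sema6c (−0.021), Sema4f (−0.14) and Sema3b (−0.36). The sign of Sema6c at this probe turned positive with median scaling (0.27) and spike-in scaling (0.70). Sema4c and Sema6d are represented by simple-repeat probes and are described with those.

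The receptors of the semaphorins had the highest share of calls among the groups of over 5 genes, with 8 of the 9 plexins called higher and neither neuropilin. Plxnc1, the receptor of Sema7a, had log2 levels of 2.21 and 2.16 on the CPEB3 arrays and −0.28 and −0.16 on the control arrays. It was 5.28-fold higher (95% interval 3.99 to 6.997, log2 difference 2.401 ± 0.15 SE, limma adjusted p = 0.00386). Plxnb2, a receptor of class 4 semaphorins, stood at 3.94 and 3.63 on the CPEB3 arrays and 1.79 and 1.57 on the control arrays, a 4.29-fold difference (2.101 ± 0.19, limma adjusted p = 0.00441). The groups did not overlap in either gene, and all 4 control values lay below the CPEB3 values by over 1.8. Plxna2, which works with neuropilins and also binds class 6 semaphorins, had levels of 3.92 and 3.62 on the CPEB3 arrays and 1.68 and 1.72 on the control arrays. It was 4.19-fold higher (2.07 ± 0.18, limma adjusted p = 0.00409). The deposited annotation places this probe on chromosome 1 but the second Plxna2 probe, which was not called (0.85 ± 0.29), on chromosome 14.

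Plxnd1, the receptor of Sema3e, was higher by 1.996 ± 0.16. Differences near 1 were found for Plxna3 (1.11 ± 0.15), Plxna4 (1.03 ± 0.18), Plxnb3 (0.87 ± 0.19) and Plxnb1 (0.82 ± 0.16), a receptor of Sema4d. All 4 lost their call without scaling, at 1.08, 0.99, 0.84 and 0.78, and Plxnb1 also with normexp background correction (0.42). Plxna4 lost it with CPEB3 IgG replicate 1 (0.93) or 2 (1.13) left out. For Plxnb3 the call was lost without CPEB3 IgG replicate 1 (0.88), CPEB3 IgG replicate 2 (0.86) or control IgG replicate 1 (0.69), and when dim probes were kept. Plxnb1 lost it whichever array was left out (0.73 to 0.91).

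Plxna1 was the plexin that was not called. Its levels were 1.12 and 1.06 on the CPEB3 arrays and 1.11 and 1.68 on the control arrays, so the groups overlapped, and the difference was −0.31 (95% interval −0.96 to 0.35). Its sign turned positive with spike-in scaling (0.41). The co-receptors Nrp1 and Nrp2 did not pass, with differences of 0.51 (95% interval −0.14 to 1.16) and 0.53 (0.11 to 0.95). Nrp2 was called higher in 5 of the 16 alternatives: with normexp (0.49), median scaling (0.82), the stricter filter on dim probes or an intensity trend (both at the same difference), and with the mean of its probes (0.81). A second, dimmer Nrp2 probe of a transcript variant was called higher (1.09 ± 0.16, limma adjusted p over probes = 0.0123).

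**Figure D2:**
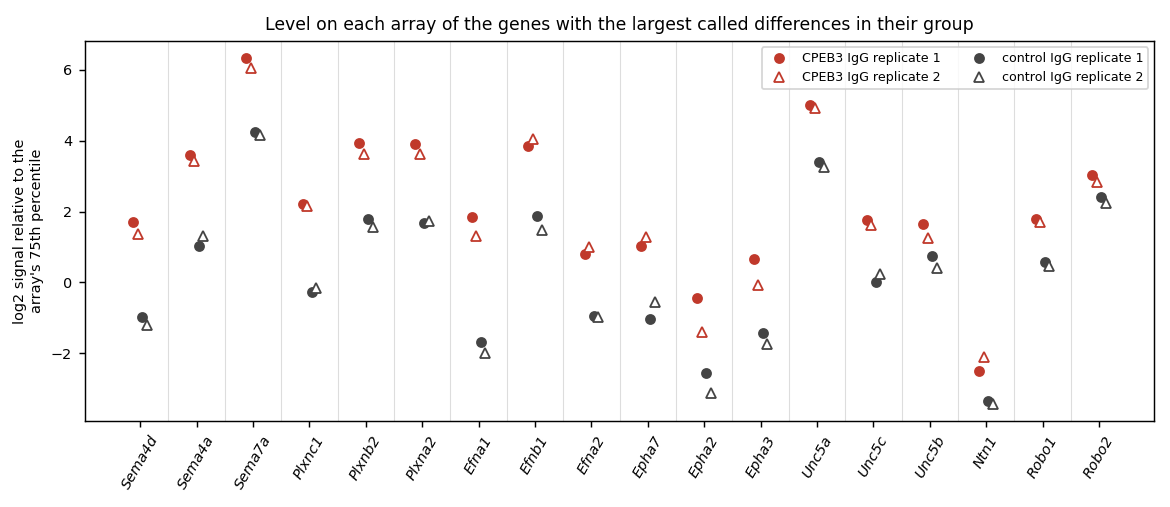
Log2 level relative to the array's 75th percentile (y axis) on each of the 4 arrays for 18 guidance genes (x axis) with the largest called positive differences in their group; red symbols are CPEB3 IgG and dark symbols control IgG, circles replicate 1 and triangles replicate 2. In all 18 genes both red symbols lie above both dark ones, with the widest gap in Efna1 and the narrowest in Robo2.

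Ephrins, the membrane-bound ligands of Eph receptors, had 5 of 8 genes called higher and none lower, and the highest median difference of the 8 groups (1.41). Efna1, anchored in the membrane by a lipid as all A-type ephrins are, had log2 levels of 1.85 and 1.32 on the CPEB3 arrays and −1.69 and −1.99 on the control arrays. It was 10.7-fold higher (95% interval 6.697 to 17.1, log2 difference 3.42 ± 0.25 SE, limma adjusted p = 0.00386), which ranked 38 from the top of 27687 array genes. Efnb1, a transmembrane ephrin, stood at 3.86 and 4.04 on the CPEB3 arrays and 1.86 and 1.48 on the control arrays, a 4.86-fold difference (2.28 ± 0.20, limma adjusted p = 0.00423). Efna2 had levels of 0.81 and 1.01 on the CPEB3 arrays and −0.96 and −0.99 on the control arrays, a 3.71-fold difference (1.89 ± 0.16, limma adjusted p = 0.00407). The CPEB3 replicates of these 3 ephrins lay within 0.53 of each other, and the groups did not overlap.

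Efnb2, also transmembrane, was higher by 1.87 ± 0.15, and Efna5 by 0.94 ± 0.15. The call of Efna5 was lost with CPEB3 IgG replicate 1 (1.00) or 2 (0.88) left out and without scaling (0.91). Efnb3 (0.24, 95% interval −0.18 to 0.65), Efna4 (0.23, −0.43 to 0.88) and Efna3 (−0.28, −0.79 to 0.22) did not pass. The probes of Efna1 and Efna2 are shown as the ephrins with the largest difference in the family and with an AATAAA.
Efna1 (chr3:89075703-89075762, minus strand): ataaatgtgctgtatctgttcatttctatg
Efna2 (chr10:79652324-79652383, plus strand): aagcaacactttgcAATAAActcatttttt

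Of the 14 Eph receptors 6 were called higher and none lower, with a median difference of 0.57. A-type receptors made up 5 of the 6, from 9 genes, and B-type receptors 1 of 5. Epha7 had log2 levels of 1.02 and 1.28 on the CPEB3 arrays and −1.05 and −0.56 on the control arrays and was 3.89-fold higher (log2 difference 1.96 ± 0.24 SE, limma adjusted p = 0.006901). All 3 of its probes, which lie on 2 RefSeq transcripts, were called higher, by 0.65, 1.45 and 1.96. Epha2, a receptor of Efna1, stood at −0.43 and −1.39 on the CPEB3 arrays and −2.55 and −3.13 on the control arrays, and here replicates of 1 antibody lay up to 0.96 apart. Its 3.81-fold difference (1.93 ± 0.41, limma adjusted p = 0.0251) lost its call without CPEB3 IgG replicate 1 (1.45). Epha3, a receptor of A-type ephrins, had levels of 0.65 and −0.067 on the CPEB3 arrays and −1.42 and −1.74 on the control arrays, a 3.66-fold difference (1.87 ± 0.30, limma adjusted p = 0.0132). The groups did not overlap in any of the 3 genes.

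Ephb1, a receptor of B-type ephrins at excitatory synapses, was higher by 1.57 ± 0.19. Smaller differences were called for Epha8 (0.79 ± 0.19) and Epha4 (0.60 ± 0.15), which binds ephrins of both types. Both calls were lost whichever array was left out, at 0.64 to 0.93 for Epha8 and 0.54 to 0.65 for Epha4. They were also lost without scaling and when dim probes were kept. Epha4 lost its call too with quantile (0.44) or spike-in scaling (1.31).

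Eph receptors that were not called had differences of 0.60 (Epha1), 0.55 (Ephb4), 0.52 (Epha6) and 0.26 (Ephb2). Below 0 were Ephb6 (−0.25), which lacks kinase activity, and Epha10 (−0.43), whose sign turned with spike-in scaling (0.29) and which was called lower with the mean of its probes (−0.98). The brighter Ephb6 probe could not be fitted because its spot was an outlier on control IgG replicate 2. Elsewhere its levels were 2.86 and 3.03 on the CPEB3 arrays and 2.18 on control IgG replicate 1. The second Epha10 probe, of another RefSeq transcript, was called lower (−1.54 ± 0.29, limma adjusted p over probes = 0.0222), with levels of −3.65 and −3.92 on the CPEB3 arrays and −1.903 and −2.599 on the control arrays.

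Netrins, with the netrin-G proteins, had 1 of 6 genes called higher. Ntn1, the classic secreted netrin, had log2 levels of −2.49 and −2.11 on the CPEB3 arrays and −3.37 and −3.43 on the control arrays and was 2.14-fold higher (log2 difference 1.095 ± 0.20 SE, limma adjusted p = 0.0166). The groups did not overlap, but the call was lost without CPEB3 IgG replicate 2 (0.90) and without scaling (1.06). Ntng2, a lipid-anchored relative that binds a synaptic adhesion partner, and the secreted Ntn3 had differences of 0.75 (95% interval −0.0088 to 1.51) and 0.73 (0.086 to 1.38) and did not pass. Ntn4 (−0.036) was well above background on 1 array of each antibody and Ntn5 (−1.07) on 1 CPEB3 array and both control arrays, and neither passed.

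Ntng1, the other netrin-G, had 3 probes with unlike results. The brightest, on a transcript whose entry is not in RefSeq, had levels of 2.04 and 1.72 on the CPEB3 arrays and 1.95 and 1.6 on the control arrays and a difference of 0.11 that did not pass. The sign of that difference turned with quantile scaling (−0.044). The probe nearest the 3′ end had levels of 1.99 and 2.13 on the CPEB3 arrays and 1.03 and 0.84 on the control arrays and was called higher (1.12 ± 0.17, limma adjusted p over probes = 0.0132). At its remaining probe the difference was −0.074.

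Among the netrin receptors, 3 of the 4 Unc5 genes were called higher. Unc5 receptors mediate repulsion by netrins. Unc5a had log2 levels of 5.0 and 4.92 on the CPEB3 arrays and 3.39 and 3.27 on the control arrays and was 3.096-fold higher (log2 difference 1.63 ± 0.15 SE, limma adjusted p = 0.00447). Unc5c stood at 1.75 and 1.61 on the CPEB3 arrays and 0.017 and 0.24 on the control arrays, a 2.94-fold difference (1.55 ± 0.17, limma adjusted p = 0.00569). Unc5b, which also acts in blood vessels, had levels of 1.63 and 1.26 on the CPEB3 arrays and 0.74 and 0.41 on the control arrays, a 1.83-fold difference (0.88 ± 0.22, limma adjusted p = 0.0405). The groups did not overlap in any of the 3, and the gap was narrowest in Unc5b. The call of Unc5b was lost without CPEB3 IgG replicate 1 (0.69), CPEB3 IgG replicate 2 (1.06) or control IgG replicate 2 (0.71), without scaling (0.84) and when dim probes were kept. Unc5d (−0.15, 95% interval −0.66 to 0.36) was not called.

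Dcc, the receptor through which netrin attracts axons, gave opposite results at its probes. The brightest had log2 levels of 5.32 and 5.65 on the CPEB3 arrays and 7.35 and 6.82 on the control arrays and was called lower (−1.6 ± 0.26, limma adjusted p = 0.0129). It is a run of 51 bases of the repeat GAA, and the deposited annotation places it on chromosome 7, while it places the other Dcc probes on another chromosome. Those had levels of −3.23 and −3.37 on the CPEB3 arrays and −4.35 and −4.16 on the control arrays and of −1.93 and −1.87 on the CPEB3 arrays and −2.45 and −2.64 on the control arrays. Both were called higher, by 0.96 ± 0.17 and 0.64 ± 0.17 (limma adjusted p over probes = 0.0191 and 0.0467). The lower call of the repeat probe was lost without CPEB3 IgG replicate 1 (−1.44) and with spike-in scaling (−0.88).

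No Slit was called by limma after adjustment over all array genes, and 2 of the 3 had an unadjusted p under 0.05. Slits are secreted ligands that repel axons at the midline. Slit2 had log2 levels of 0.049 and 0.43 on the CPEB3 arrays and −0.34 and −0.32 on the control arrays and Slit1 of 1.16 and 1.21 on the CPEB3 arrays and 0.62 and 0.83 on the control arrays. In both the CPEB3 arrays lay above the control arrays, with differences of 0.57 (95% interval 0.052 to 1.09, limma adjusted p = 0.0801) and 0.46 (0.017 to 0.89, 0.0912), which were called with median scaling (0.86 and 0.75). Slit3 differed by −0.044 (95% interval −0.52 to 0.44), a value whose sign turned with quantile (0.023), median (0.25) and spike-in scaling (0.67).

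Of the Robo receptors, 2 of 4 were called higher. Robo1 had log2 levels of 1.79 and 1.7 on the CPEB3 arrays and 0.59 and 0.47 on the control arrays and was 2.32-fold higher (log2 difference 1.21 ± 0.15 SE, limma adjusted p = 0.00751). Robo2 stood at 3.03 and 2.84 on the CPEB3 arrays and 2.41 and 2.23 on the control arrays, a 1.53-fold difference (0.62 ± 0.17, limma adjusted p = 0.0492). The Robo2 call was lost whichever array was left out (0.52 to 0.71) and with normexp, quantile, spike-in or no scaling and when dim probes were kept, and its other probes had differences of −0.27 and −0.57. Robo3 (0.49, 95% interval −0.84 to 1.81), which acts in commissural axons, and Robo4 (0.14, −0.80 to 1.07), known from blood vessels, had groups that overlapped.

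Ligands and receptors known to bind each other can be read side by side. Sema7a (1.995) and Plxnc1 (2.401) were both called higher, as were Sema4d (2.62) with Plxnb1 (0.82) and Plxnb2 (2.101). Efna1 (3.42) and its receptor Epha2 (1.93) were both higher, as were Efnb2 (1.87) and Ephb1 (1.57) and, for netrin, Ntn1 (1.095) with Unc5a, Unc5b and Unc5c. Of the other netrin receptors, Unc5d (−0.15) was not called and Dcc was called lower at its repeat probe (−1.6) and higher at its other probes. For Sema3a (1.91), the plexins Plxna2, Plxna3 and Plxna4 were called higher, but Plxna1 (−0.31) and the co-receptor Nrp1 (0.51) were not. For Plxnd1 (1.996) the ligand Sema3e was not called, and for Robo1 and Robo2 no Slit was. These couples were picked from textbook knowledge with the values known, so their number carries no test.

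Where a transcript had several probes, the difference varied with their position. Among 14 guidance genes with at least 2 tested probes on the same RefSeq transcript, simple-repeat probes left out, the probe nearest the 3′ end had the larger difference in 13 (92.9%). On the whole array the same held for 77.2% of 3964 transcripts. With simple-repeat probes kept, it held for 13 of 16 guidance transcripts (81.25%), nearer the array's share. Of those 16, 1 was called lower at the probe nearest the 3′ end. The median difference of the 14 was 1.04 at the probe nearest the 3′ end and 0.17 at the probe nearest the 5′ end, with 9 and 3 of them called higher. For the array the medians were 0.24 and −0.35, with 32.6% and 12.7% of the 3964 transcripts called higher. None of the 14 was called lower at either probe, and the array's shares were 14.3% and 29.7%. The cause of this order was not tested.

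**Figure D3:**
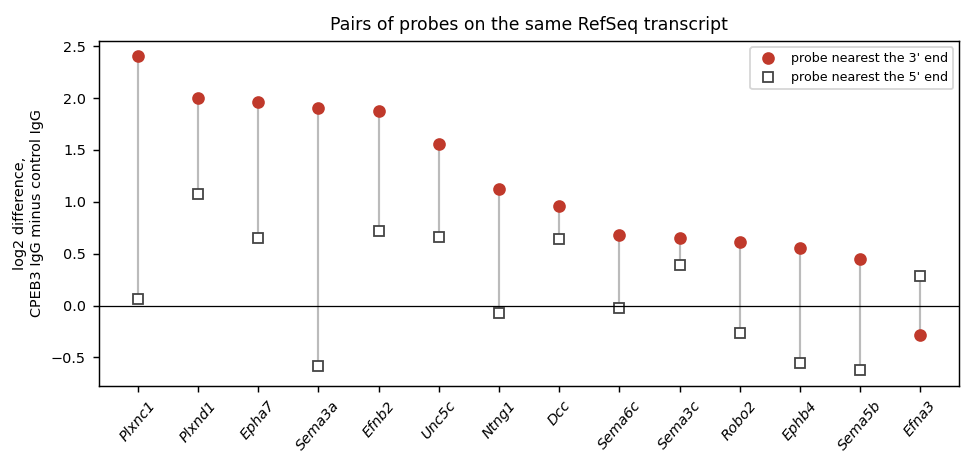
Log2 difference (CPEB3 IgG minus control IgG, y axis) at the tested probes nearest the 3′ end (red circles) and nearest the 5′ end (open squares) of the same RefSeq transcript, for 14 guidance genes with simple-repeat probes left out. The red circle is the higher one in every gene but Efna3, and the widest gaps are in Sema3a and Plxnc1.

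Sema3a, a secreted ligand that repels axons, gives the widest gap. At the probe near the 3′ end its log2 levels were 2.34 and 2.52 on the CPEB3 arrays and 0.49 and 0.55 on the control arrays, a difference of 1.91 ± 0.17 (limma adjusted p over probes = 0.00541). At the probe 4790 nt nearer the 5′ end they were −2.703 and −2.58 on the CPEB3 arrays and −2.22 and −1.896 on the control arrays, a difference of −0.58 ± 0.19 that did not pass (limma adjusted p over probes = 0.081). Plxnc1 differed by 2.401 near the 3′ end and by 0.064 at a probe 2288 nt upstream. With the mean of their probes the differences were 0.66 for Sema3a and 1.23 for Plxnc1, both still called. Unc5c (1.55 and 0.66), Efnb2 (1.87 and 0.72) and Plxnd1 (1.996 and 1.07) were also larger near the 3′ end. Sema6c was called there (0.68 ± 0.18) but not at its brighter probe (−0.021), and the exception Efna3 had −0.28 near the 3′ end and 0.28 upstream. The probes of Sema3a and Plxnc1 are shown as the pairs that differ most, the one nearest the 3′ end first.
Sema3a 3′ probe (chr5:13602462-13602521, plus strand): actggagagaaaaatgtaacgatattgctg
Sema3a 5′ probe (chr5:13473453-13473512, plus strand): ggggctttccatccaatctgcacctatatt
Plxnc1 3′ probe (chr10:94253879-94253938, minus strand): aatgcacagaatgtccaaattagatgtgtg
Plxnc1 5′ probe (chr10:94257387-94257446, minus strand): caacctacaaagaggaagtgaagtcttact

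Some guidance genes are represented by probes that consist partly of a simple repeat, taken here as a run of at least 15 bases with a period of 2 or 3. These are the brightest probes of Epha5, Ephb3, Sema4c and Sema6d, with 20 to 33 bases of alternating T and G, and of Dcc. No other tested guidance probe had a run above 13 bases. The runs, in capitals, are shown because the values of these 4 genes rest on them, beside the other Epha5 probes.
Epha5 repeat probe (chr5:84487348-84487407, minus strand): gaaatTGTGTGTGTGTGTGTGTGTGcgtgc
Ephb3 repeat probe (chr16:21223165-21223224, plus strand): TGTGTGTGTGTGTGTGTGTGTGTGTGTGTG
Sema4c repeat probe (chr1:36605998-36606057, minus strand): aaTGTGTGTGTGTGTGTGTGTGTGTtgtaa
Sema6d repeat probe (chr2:124491609-124491668, plus strand): agaggggcgaGTGTGTGTGTGTGTGTGTGT
Epha5 3′ probe (chr5:84483837-84483896, minus strand): tgtttgtgctttcagtttgtgtacatgttt
Epha5 other probe (chr5:84494886-84494945, minus strand): tataaatatcatagtctcagcactgtcttc

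In all 4 TG-repeat probes control IgG replicate 1 stood apart from the other 3 arrays. Ephb3, a receptor of B-type ephrins, had log2 levels of 5.43 and 5.02 on the CPEB3 arrays and 7.34 and 5.08 on the control arrays. Sema4c, a class 4 semaphorin, had 6.28 and 5.89 on the CPEB3 arrays and 8.05 and 5.94 on the control arrays, and Sema6d, a class 6 semaphorin, had 2.32 and 1.92 on the CPEB3 arrays and 4.09 and 1.85 on the control arrays. The differences of −0.99 (95% interval −3.11 to 1.14), −0.91 (−2.904 to 1.08) and −0.85 (−2.96 to 1.26) were not called. Without control IgG replicate 1 they were 0.14, 0.14 and 0.27, and without control IgG replicate 2 they were −2.11, −1.97 and −1.97 and called lower. The second Sema6d probe, with no repeat, differed by 0.29 and did not pass.

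Epha5, an A-type Eph receptor of the forebrain, shows how far the choice of probe matters. Its repeat probe had log2 levels of 4.35 and 3.85 on the CPEB3 arrays and 6.23 and 3.97 on the control arrays and was not called (−1.004). Its probe nearest the 3′ end had 5.84 and 5.12 on the CPEB3 arrays and 1.89 and 1.53 on the control arrays, a difference of 3.77 ± 0.31 (limma adjusted p over probes = 0.00533), the largest of the 100 guidance probes tested. Its remaining probe was called higher too (1.48 ± 0.20, 0.00998).

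The same pattern held for such probes across the array. All 79 tested TG-repeat probes were brighter on control IgG replicate 1 than on control IgG replicate 2, by a median of 2.18 on the log2 scale, against a median of −0.04 over all tested probes. None of the 79 was called by limma in either direction, and at an unadjusted p under 0.05 the count was also 0. Of 49 GAA-repeat probes, the kind of the bright Dcc probe, 45 were called lower, with a median difference of −1.67. Simple-repeat probes were 265 (0.652%) of the tested probes. With them left out, an alternative chosen after the data were seen, 35 of 69 guidance genes were called higher and none lower. Among array genes the shares were 19.5% and 20.4%, and among RefSeq-matched ones, with such probes kept, 25.6% and 19.9%. Epha10 and Ntn5 are the 2 genes without such a probe that had a negative difference at an unadjusted p under 0.05 by limma. The calls of Dcc (0.64) and Epha5 (3.77) were then higher. Of the 22677 RefSeq probes tested, the nearer comparison for guidance probes, 5026 were called higher and 4528 lower. Counted by probe, 42 of 100 guidance probes were called higher and 2 lower, against 15.8% and 18.9% of array probes. That count fell to 22 without CPEB3 IgG replicate 1 and to 25 without CPEB3 IgG replicate 2, and the 2 lower probes became 8 without control IgG replicate 2 and 0 without either CPEB3 array.

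**Figure D4:**
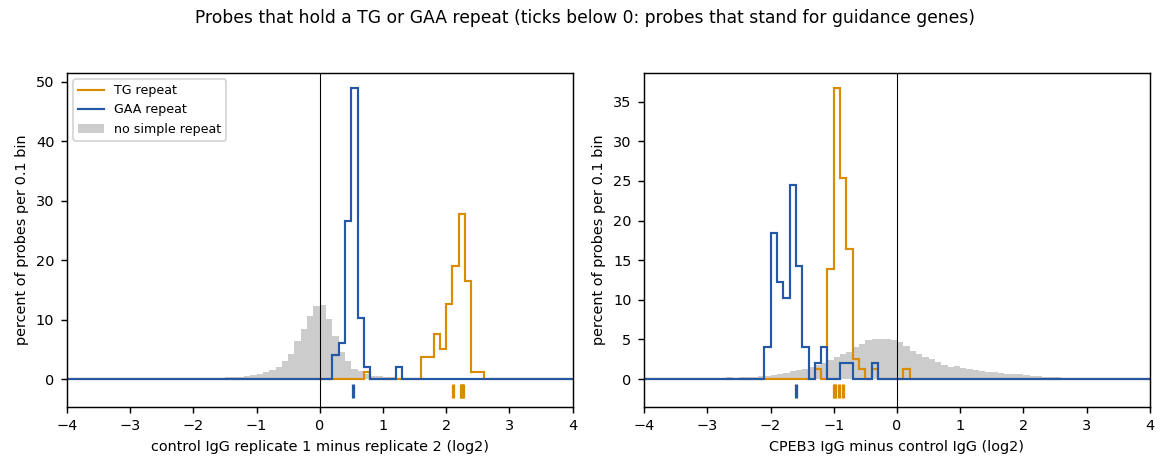
Percent of probes per 0.1 bin of the log2 difference between the control IgG replicates (left, x axis) and between CPEB3 IgG and control IgG (right, x axis), for 79 probes with a TG repeat (orange), 49 with a GAA repeat (blue) and the other tested probes without a simple repeat (grey). TG-repeat probes centre on 2.18 at left, GAA-repeat probes on −1.67 at right, and ticks under the axis mark the 5 probes that stand for guidance genes.

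The probes themselves were searched for short motifs, as a description. TTTTAT, searched on both strands, was present on the deposited strand in 4 of 100 tested guidance probes, those of Epha2, Epha4, Sema4a and Sema3g, and in 4.36% of 22677 RefSeq probes. Its reverse complement ATAAAA was in 4 guidance probes and in 6.16% of RefSeq probes. Over all RefSeq probes TTTTAT was in 8.95% of those called higher, 1.79% of those called lower and 3.49% of those not called. The median share of T bases in these probes was 33.3%, 25% and 28.3% in the same order. Whether the motif follows the calls apart from the share of T was not tested. AATAAA, searched on the deposited strand and able to overlap ATAAAA, was in 12 guidance probes (12%) and in 14.0% of RefSeq probes. Of the 12, 8 were among the 42 probes called higher. Over all RefSeq probes AATAAA was in 15.5% of those called higher, 13.008% of those called lower and 13.7% of those not called. A probe covers 60 bases, so the rest of each mRNA was not searched. The Epha2 and Epha4 probes are shown as the Eph receptor probes that hold TTTTAT, in capitals. Binding of CPEB3 at this motif was not tested.
Epha2 (chr4:140885139-140885198, plus strand): gttacagatttcTTTTATtgggttgttttt
Epha4 (chr1:77364339-77364398, minus strand): aggctctgaggtTTTTATtttttggcgatc

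Other guidance genes outside the 4 ligand and receptor systems were read from lists drawn up by function. Earlier results of these data were known when the lists were made, so their shares are a description. Of 33 tested cues, co-receptors and adhesion molecules 16 (48.5%) were called higher and 2 (6.06%) lower, with a median difference of 1.13. Among array genes matched to RefSeq the shares were 25.6% and 19.9%. Rtn4r, the Nogo receptor, differed by 3.599 ± 0.21 and Cdon, a co-receptor for Hedgehog, by 2.99 ± 0.15. Smo, the Hedgehog signal transducer, was higher by 2.597 ± 0.31, and at that probe it kept its call with each array left out in turn (2.29 to 2.91). When the brightest probe was chosen anew without CPEB3 IgG replicate 1 or 2, another probe stood for Smo, with differences of 0.27 and −0.29 that were not called. Called lower were Rtn4, which encodes Nogo (−1.31 ± 0.18), and the adhesion molecule L1cam (−0.79 ± 0.15). The call of Rtn4 was lost without CPEB3 IgG replicate 1 (−1.19) and with spike-in scaling (−0.59). That of L1cam was lost without CPEB3 IgG replicate 1 (−0.83), CPEB3 IgG replicate 2 (−0.75) or control IgG replicate 2 (−0.73), and with median (−0.50), spike-in (−0.073) or no scaling (−0.82).

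Of 50 intracellular signal transducers of guidance receptors 20 (40%) were called higher and 8 (16%) lower, with a median difference of 0.33. The share called lower lay near that of RefSeq-matched array genes (19.9%), of which 25.6% were called higher. The largest positive differences were those of Mical3, a flavin enzyme that acts on actin (3.004 ± 0.24), Adam10, a protease that cleaves ephrins and other guidance proteins (2.14 ± 0.15), and Nck2, an adaptor of receptor kinases (2.11 ± 0.15). The largest negative ones were those of Dpysl3, a collapsin response mediator (−1.83 ± 0.19), Ngef, an exchange factor bound to Epha4 (−1.37 ± 0.17), and Farp2, an exchange factor of class 3 semaphorin signalling (−1.36 ± 0.16). These 3 lower calls were lost with spike-in scaling, at −1.12, −0.66 and −0.64, and that of Farp2 with the mean of its probes (−0.45).

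The lysate holds many cell types, and a difference compares both precipitates, so it measures neither cell numbers nor RNA per cell. Markers of cell types were read on the same arrays as a description. Among array genes matched to RefSeq, 25.6% were called higher and 19.9% lower. Of 9 neuronal markers 1 was called higher (Rbfox3, 0.70) and 1 lower (Syn1, −1.14). The log2 of their summed linear levels was 8.505 and 8.55 on the CPEB3 arrays and 8.59 and 8.64 on the control arrays. Among them, Snap25 was read at a simple-repeat probe, at 5.43 and 5.49 on the CPEB3 arrays and 5.40 and 6.29 on the control arrays. The Rbfox3 call was lost whichever array was left out (0.63 to 0.76), with spike-in or no scaling and when dim probes were kept, and with the mean of its probes the gene was called lower (−0.84). Of 7 astrocyte markers, Slc1a3 (3.16) and Gja1 (0.93) were called higher and Aldh1l1 (−3.03) lower, with sums of 6.88 and 6.19 against 6.42 and 5.98. Bright markers weigh most in such a sum. Slc1a3 alone stood at 6.20 and 5.36 on the CPEB3 arrays and 2.90 and 2.33 on the control arrays. Of the 7 differences, 4 were positive and 3 negative, so the sum does not stand for the whole list. At the Aldh1l1 probe nearest the 3′ end the sign was positive and the gene was not called (0.59), and the mean of its probes was −1.22. Oligodendrocyte precursor markers were called higher in 2 of 3 (Pdgfra 2.42 and Gpr17 1.68), with sums of 3.985 and 3.57 against 2.17 and 1.85, while Cspg4 was not called (−0.011). Mature oligodendrocyte markers had 1 of 6 called lower (Cnp, −1.804), with sums of 7.02 and 6.71 against 7.45 and 7.12. Microglial markers had 3 of 7 lower (Aif1 −2.34, C1qa −1.21 and C1qb −1.04), with sums of 4.44 and 4.004 against 4.88 and 4.73. Endothelial markers had 1 of 5 higher (Cdh5, 1.44), with sums of 3.95 and 3.88 against 4.02 and 3.82. Without CPEB3 IgG replicate 1 the calls of Gja1, Gpr17, C1qa, C1qb and Cdh5 were lost (limma adjusted p from 0.0634 to 0.0976). Without CPEB3 IgG replicate 2 those of Gja1, C1qa, C1qb and Cdh5 were lost (limma adjusted p from 0.0523 to 0.08197), and without control IgG replicate 2 that of Gja1 (0.0582). Spike-in scaling ended the calls of Syn1 (−0.43), Cnp (−1.09), C1qa (−0.50) and C1qb (−0.32), and no scaling those of Gja1 and C1qb. All of these markers were well above background on all 4 arrays. Their part in the guidance results was not tested.

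Across the 16 alternatives in which single genes were refitted, 20 of the 34 called guidance genes kept their call and direction in all. They were 6 semaphorins (Sema3a, Sema4a, Sema4b, Sema4d, Sema5a and Sema7a), 4 plexins (Plxna2, Plxnb2, Plxnc1 and Plxnd1), 4 ephrins (Efna1, Efna2, Efnb1 and Efnb2), 3 Eph receptors (Epha3, Epha7 and Ephb1), Unc5a, Unc5c and Robo1. With each gene's probe kept while an array was left out, an alternative chosen after the data were seen, Robo1 (limma adjusted p = 0.0521) and Sema4b (0.0511) missed the threshold without CPEB3 IgG replicate 1 at unchanged differences. Plxna3 then missed it without CPEB3 IgG replicate 1 (0.05204) or 2 (0.0506), Unc5b without control IgG replicate 1 (0.0507) and Dcc without CPEB3 IgG replicate 2 (0.05303). All arrays were on 1 slide, so position on the slide and antibody cannot be told apart.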

How the data were processed

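Each deposited file is the spot output of 1 array. Per the file headers, Feature Extraction 10.5.1.1 made the processed intensity, which was background-subtracted and spatially detrended within each array, and it was not scaled between arrays. The mean and local background intensities, also as deposited, served an alternative only. Probe coordinates are on mm9, per the file headers, and exons and UTRs were not analysed here.

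Control spots (3671 of 62976) and outlier spots (123 to 223 an array) were left out. Log2 intensity minus the array's 75th percentile (353 to 507 units) was averaged over the spots of a probe, and 40616 probes that stood well above background on 2 or more of the 4 arrays were kept. A gene took its brightest probe. Symbols were updated by accession from a RefSeq table (GRCm38.p6, names only), which matched 27509 probes. The test was limma's (version 3.58.1, R 4.3.3; lmFit and eBayes), with Benjamini-Hochberg adjustment over all genes or all probes. The fit was tested on simulated data.

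The members and lists were chosen with earlier results of these data known. Named with values on every array are up to 3 called genes per role and direction (2 with the smallest p where none passed), genes whose probes disagreed, and up to 3 called genes per direction of each further list. Other genes named were chosen after their values were seen.

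Alternatives were normexp (offset 50), quantile, median, spike-in or no scaling, other filters on dim probes, an intensity trend, a block for the replicate number, 1 array left out at a time (with the brightest probe chosen anew or, chosen after the data were seen, kept), stricter thresholds, other choices of probe, and simple-repeat probes left out.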

Additional observations from a re-analysis of the deposited data

How the results depend on the processing

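Between 20 and 43 guidance genes were called higher under all settings tried, with 33 as reported: 43 with median scaling, 37 with quantile scaling, 23 without scaling, 28 without the filter on dim probes, 26 with a difference of at least 2-fold required, 21 at adjusted p 0.01, and 23 to 29 with 1 array left out and the brightest probe chosen anew, or 20 to 28 with the reported probe kept. Guidance genes called lower were 0 with spike-in scaling, at adjusted p 0.01 and without simple-repeat probes, and 0 to 5 with 1 array left out. The 5, without control IgG replicate 2, were the genes on simple-repeat probes. Array genes called higher fell to 3110 without scaling and 2643 at adjusted p 0.01 and were 2651 to 4809 with 1 array left out (2492 to 4320 with the probe kept). Array genes called lower were 3137 with median scaling, 691 with spike-in scaling, 3629 without scaling, 1794 at adjusted p 0.01, 3522 at 2-fold, and 2292 to 4690 with 1 array left out (2019 to 4466 with the probe kept). Guidance probes called higher were 26 without scaling, 22 at adjusted p 0.01 and 22 to 35 with 1 array left out. Guidance probes called lower were 1 with quantile scaling and without simple-repeat probes, 0 with spike-in scaling and at adjusted p 0.01, and 0 to 8 with 1 array left out.

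Signs turned for these genes. With the mean of all probes the differences were 2.1e-05 for Dcc, 1.41 for Epha5, −0.84 for Rbfox3, −0.075 for Robo2 and 0.33 for Sema6c. At the probe nearest the 3′ end they were 0.59 for Aldh1l1, 3.77 for Epha5 and 0.68 for Sema6c. Without simple-repeat probes they were 0.64 for Dcc, 3.77 for Epha5 and 0.29 for Sema6d, since another probe then stands for the gene. Spike-in scaling gave 0.29 for Epha10, 0.41 for Plxna1, 0.70 for Sema6c and 0.67 for Slit3, median scaling 0.27 for Sema6c and 0.25 for Slit3, and quantile scaling −0.044 for Ntng1 and 0.023 for Slit3. With 1 array left out, differences at the reported probe ran from −2.13 to 0.13 for Epha5, from −2.11 to 0.14 for Ephb3, from −0.067 to 0.28 for Ntng1, from −1.97 to 0.14 for Sema4c, from −0.23 to 0.18 for Sema6c, from −1.97 to 0.27 for Sema6d, and from −0.19 to 0.096 for Slit3. When the probe was chosen anew with the array left out, another one stood for 217 to 253 array genes. Among guidance genes these were Epha5 without control IgG replicate 1 (3.95) and Ephb6 without control IgG replicate 2 (0.77). Smo, at 2.29 to 2.91 with its probe kept, then gave 0.27 and −0.29 without CPEB3 IgG replicate 1 and 2.

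The fit with the replicate number as a block called 37 guidance genes higher and 1 lower, and 5759 array genes higher and 6654 lower. Nothing in the labels says that a number marks a shared mouse, lysate or day, and the deviations of same-numbered arrays correlated at 0.39. With only 2 pairs, whether same-numbered arrays share more than a number cannot be told. The limits are 2 arrays per antibody, no input array analysed, and 1 slide for all arrays. Beyond those with a stated cause, the cause was not tested.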
